A study of Homo sapiens with 6 samples.

Results

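The snoRNA host genes are transcription units that carry small nucleolar RNAs inside their introns. Members were the rows of the count table whose gene symbol was SNHG followed by a number, together with GAS5, DANCR, ZFAS1, EPB41L4A-AS1 and RACK1. This gave 33 of 61541 Ensembl genes, 28 named SNHG and 5 with another name. GENCODE classed 32 of them as long noncoding RNA genes and 1, RACK1, as protein coding. The filter on low counts kept 31 members among 17678 genes, while SNHG18 and SNHG27 were at 0 counts in each of the 6 libraries.

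A snoRNA is a short stable RNA that guides chemical modification or cleavage of ribosomal RNA in the nucleolus. Box C/D snoRNAs direct ribose methylation and box H/ACA snoRNAs direct pseudouridylation, and the related scaRNAs act on spliceosomal RNAs in Cajal bodies. Most vertebrate snoRNAs are cut out of introns after splicing, so that host transcription supplies the snoRNA while the exons are joined into a separate RNA. Many of these joined RNAs encode no long protein, several begin with a terminal oligopyrimidine tract like that of ribosomal protein mRNAs, and several are known substrates of nonsense-mediated decay when they are translated.

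RNA-seq was performed in H9 cells, an established human cutaneous T-cell lymphoma line, of the wild-type genotype (WT) in both groups. Cells received the solvent DMSO (3 libraries, with no duration in their labels) or, for 4 h, AZD4573 at 50 nM (3 libraries), a small-molecule inhibitor of CDK9, the kinase that releases paused RNA polymerase II into elongation. All 6 libraries came from this 1 line, and no label ties the replicates to separate cultures, so that p-values measure the spread between these libraries, which may be technical. The comparison asks how inhibition of CDK9 altered the steady-state transcripts of the host genes.

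Library totals ranged from 70367303 to 76571157 counts with DMSO and from 52101868 to 63795185 counts with AZD4573, so that 3 counts correspond to 0.0392 to 0.0576 CPM, the count scaled to a common library size. Levels are given as CPM corrected by the trimmed mean of M-values (TMM), which makes the bulk of genes comparable between libraries, and errors of mean levels are SD over the 3 libraries of a group. The 2 members at 0 counts could thus lie at most at that level of 3 counts. The 13 mitochondrially encoded mRNAs took 3.13% ± 0.0929 of counts with DMSO and 4.85% ± 0.162 with AZD4573 (SD, n = 3 each). Reads at 12 rDNA genes took 0.103% to 0.332% with DMSO, where replicate 3 stood above the others, and 1.23% to 1.32% with AZD4573. Of 8 T-cell markers 7 passed the filter, with a summed level of 836 to 858 CPM and 1125 to 1202 CPM, while CD2 was near 0, at 0.105 ± 0.0562 CPM and 0.012 ± 0.0105 CPM (SD, n = 3 each). Of the B-cell markers, CD79A was at 57.8 ± 2.96 CPM with DMSO and 93.5 ± 4.99 CPM with AZD4573, and MS4A1 at 0.192 ± 0.0396 and 0.302 ± 0.0643 CPM (SD, n = 3 each). The 3 epithelial markers summed to 149.5 to 168 CPM and 133 to 137 CPM, nearly all from EPCAM. The 3 myeloid markers summed to 0.051 to 0.191 CPM and 0.314 to 0.403 CPM, and the 2 erythroid markers stayed below the level of 3 counts. The part of these shifts in the results on the host genes was not tested.

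RefSeq places 150 snoRNAs inside 31 of the members, of which 123 are box C/D, 23 are box H/ACA and 4 are scaRNAs. SNHG14 alone holds 83, most of them tandem copies, and the other hosts hold 67, with 11 in GAS5 as the next highest number. A single snoRNA was found in 15 members, and none is named in SNHG27 and SNHG28. An intron of the canonical transcript held 143 of the 150. The sequences that follow were read from the GRCh38 genome and are given 5′ to 3′ for hosts that fell (SNHG7, SNHG12, SNHG30) and hosts that rose with TMM (ZFAS1, SNHG5), to show what such guide RNAs look like in called hosts of either direction. Capitals mark TGATGA near the 5′ end and CTGA near the 3′ end, the core letters of boxes C and D, or the ACA of the H/ACA class near its 3′ end.
SNORA17A, SNHG7, chr9:136726747-136726879, minus strand: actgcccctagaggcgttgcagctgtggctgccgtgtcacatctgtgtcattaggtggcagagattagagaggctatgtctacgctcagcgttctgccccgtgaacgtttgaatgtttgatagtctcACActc
SNORA16A, SNHG12, chr1:28580920-28581053, minus strand: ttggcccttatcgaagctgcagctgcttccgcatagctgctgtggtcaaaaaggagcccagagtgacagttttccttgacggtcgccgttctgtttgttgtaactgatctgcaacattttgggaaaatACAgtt
SNORD7, SNHG30, chr17:35573657-35573753, plus strand: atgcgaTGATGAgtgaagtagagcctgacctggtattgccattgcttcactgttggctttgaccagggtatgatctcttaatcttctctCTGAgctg
SNORD12, ZFAS1, chr20:49280683-49280772, plus strand: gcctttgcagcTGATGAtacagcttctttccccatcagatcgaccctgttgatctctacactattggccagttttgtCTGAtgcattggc
SNORD12C, ZFAS1, chr20:49278945-49279023, plus strand: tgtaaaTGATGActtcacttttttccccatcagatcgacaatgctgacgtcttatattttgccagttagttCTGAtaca
SNORD50B, SNHG5, chr6:85677589-85677659, minus strand: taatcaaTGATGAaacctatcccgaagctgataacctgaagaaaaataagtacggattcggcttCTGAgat
These letters were found in 17 of 26 box C/D and 20 of 22 box H/ACA sequences read.

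The snoRNAs themselves were hardly seen by this assay. Of the 150, 139 had a row in the count table and 134 of these were at 0 in all 6 libraries, while 5 had at least 1 count. SNORA71B, in SNHG17, had 16, 39 and 32 counts with DMSO and 24, 14 and 25 counts with AZD4573. SNORA73B, in SNHG3, had 0, 4 and 18 counts and then 1, 0 and 0 counts. The values below therefore describe reads counted to the host genes and not to the rows of the guide RNAs. SNORA9 (SNHG15), SNORA50C (SNHG25) and SCARNA17 (SNHG22) are among those wholly or partly in host exons. Reads of such RNAs could be counted to the host, and their part was not tested.

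Upon AZD4573, host genes moved in both directions, and the larger number moved upwards with TMM. In a bulk measurement, fewer cells that express a gene and less of its RNA per cell cannot be told apart. A gene was called at an adjusted p under 0.05 with a fold change of at least 1.5. Of the 31 members tested, 4 were called lower, or 12.9%, where 23.7% of all genes tested were called lower. A further 8 were called higher, or 25.8%, where 22.7% of all genes were. These 8 include SNHG28, which had almost no counts with DMSO. With at least 10 counts required in every library 30 members were tested. Of these 4 were called lower and 7 higher, where 3660 and 3246 of 15247 genes were. The share called higher was near that of all genes, the share called lower was below it, and neither difference was tested. The 4 called lower were SNHG12, SNHG7, SNHG30 and SNHG17, and the 8 called higher were SNHG5, ZFAS1, SNHG6, SNHG14, SNHG4, SNHG10, SNHG22 and SNHG28. With the adjusted p alone, 9 members were lower and 17 were higher, where 37.4% and 37.3% of all genes were, and 5 did not pass. The 3 AZD4573 libraries did not overlap the 3 DMSO libraries in most members, with AZD4573 below DMSO in 9 and above it in 17, where 38.7% and 39% of all genes were. The median log2 fold change of the members was 0.40 and that of all genes tested was 0.026. The difference of 0.38 came to 0.25 when genes of low counts were kept in the comparison.

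These directions depend on how libraries are set against each other. Scaled to the 13 mitochondrially encoded mRNAs, which a separate polymerase transcribes, the median of all genes moved from 0.026 to -0.71, and 27 of the 31 members took a value below 0. With that scaling 13 members were called lower and 2 higher (SNHG22 and SNHG28), where 9433 and 1769 of all 17678 genes were. The 13 were the 4 called lower with TMM together with GAS5, SNHG1, SNHG3, SNHG8, SNHG11, SNHG15, SNHG16, SNHG26 and SNHG31. Only SNHG4, SNHG10, SNHG22 and SNHG28 kept a value above 0. Beside each member that was higher with TMM, its value with this mitochondrial scaling is therefore given. With no factor beyond library size, 4 members were called lower and 4 higher, where 4769 and 3444 of all 17678 genes were. SNHG5 (0.53), ZFAS1 (0.54), SNHG6 (0.57) and SNHG14 (0.57) then fell short of the fold threshold.

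**Figure D1:**
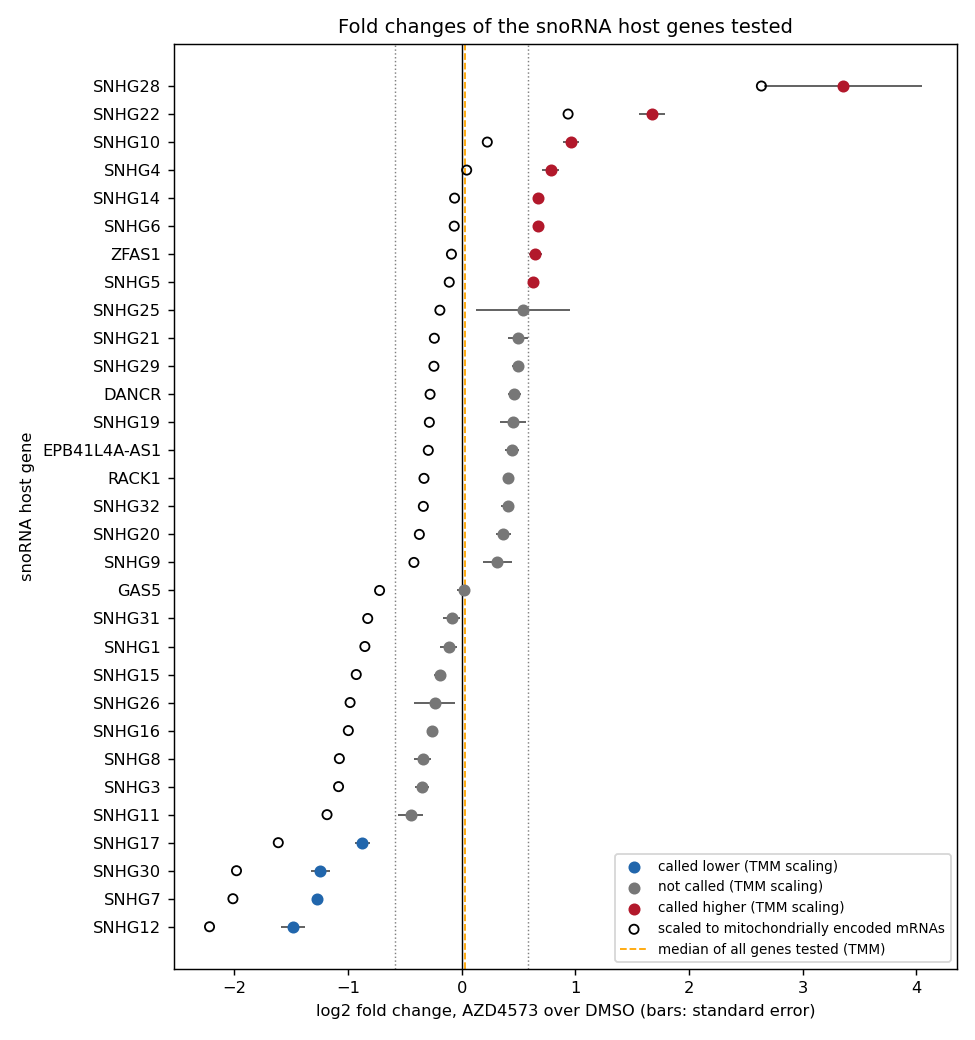
Log2 fold change of AZD4573 over DMSO (horizontal axis) for the 31 host genes tested, with standard errors. Filled points are TMM values and open points the values scaled to mitochondrially encoded mRNAs, which sit lower for every member and below 0 for 27 of them; dotted lines mark a fold change of 1.5 and the dashed line the median of all genes, 0.026.

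Among the hosts called lower, SNHG7 was the most abundant per kb of transcript. SNHG7, on chr9:136721366-136728184, minus strand, holds 2 H/ACA RNAs, of which SNORA17A is printed above. It was measured at 132, 139 and 136 CPM with DMSO and 54.7, 56.3 and 57.3 CPM with AZD4573. The AZD4573 libraries were close to each other and far below DMSO, and SNHG7 fell by a wide margin (log2 fold change -1.27 ± 0.044, adjusted p = 5.78e-11, errors of log2 fold changes being SE). SNHG12, on chr1:28578538-28583132, minus strand, holds 3 H/ACA RNAs and 1 C/D RNA. Its level was 46.4, 59.2 and 63.3 CPM with DMSO and 22.2, 20.2 and 17.9 CPM with AZD4573. DMSO replicate 1 lay below the other 2 control libraries, but still above every treated library. SNHG12 had the lowest fold change of the members (log2 fold change -1.49 ± 0.11, adjusted p = 2.39e-08).

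SNHG30, on chr17:35568050-35574900, plus strand, holds the C/D RNA SNORD7 and was scarcer, with 14.7, 13.035 and 14.8 CPM with DMSO and 6.05, 5.65 and 6.27 CPM with AZD4573. The groups were well separated (log2 fold change -1.24 ± 0.086, adjusted p = 1.89e-08). SNHG17, on chr20:38419638-38435409, minus strand, holds 4 copies of the SNORA71 family and was measured at 52.8, 60.3 and 62.7 CPM with DMSO and 31.2, 33.4 and 31.2 CPM with AZD4573. SNHG17 fell as well (log2 fold change -0.88 ± 0.066, adjusted p = 4.30e-08). SNHG11, which lies close to SNHG17 on the opposite strand and carries SNORA71E and SNORA60, ran between 5.01 and 8.28 CPM over the libraries and fell by less than the threshold (log2 fold change -0.45 ± 0.11, adjusted p = 0.0022).

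A further 4 hosts with at least 10 CPM fell by less than the fold threshold. SNHG3, the host of SNORA73A and SNORA73B, which take part in early cleavage of pre-ribosomal RNA, was measured at 75.4, 87.4 and 89.8 CPM with DMSO and 65.0, 68.1 and 65.7 CPM with AZD4573. The treated libraries lay below each control, and DMSO replicate 1 was the lowest control (log2 fold change -0.35 ± 0.062, adjusted p = 1.87e-04). SNHG8, with SNORA24, had 19.9, 19.3 and 22.3 CPM with DMSO and 17.4, 15.8 and 15.4 CPM with AZD4573. This was a modest fall without overlap (log2 fold change -0.34 ± 0.075, adjusted p = 9.97e-04). SNHG16, with 3 C/D RNAs of the SNORD1 family, had 91.4, 94.5 and 95.4 CPM with DMSO and 76.5, 80.6 and 78.0 CPM with AZD4573. Its libraries were tight and its fall small (log2 fold change -0.26 ± 0.044, adjusted p = 1.24e-04). SNHG15, with SNORA9, had 109, 123 and 125 CPM with DMSO and 104, 108 and 100.4 CPM with AZD4573. DMSO replicate 1 lay only just above the highest treated library (log2 fold change -0.19 ± 0.055, adjusted p = 0.0068).

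Several well-known hosts did not pass the test with TMM. With the mitochondrial scaling GAS5 (-0.72), SNHG1 (-0.85), SNHG31 (-0.83) and SNHG26 (-0.98) were called lower, where 9433 of 17678 genes were. GAS5, named for its accumulation in growth-arrested cells and the host of the largest number of snoRNAs outside SNHG14, was measured at 119.6, 128 and 131 CPM with DMSO and 122, 122 and 139 CPM with AZD4573. The groups overlapped and the means nearly coincided (log2 fold change 0.016 ± 0.057, adjusted p = 0.8, against -0.72 with the mitochondrial scaling). SNHG1, whose 8 C/D RNAs sit in its introns, had 107, 131 and 134 CPM with DMSO and 109.9, 122 and 112 CPM with AZD4573. DMSO replicate 1 was below every other control and also below all treated libraries (log2 fold change -0.11 ± 0.073, adjusted p = 0.18). Without that library the log2 fold change of SNHG1 was -0.22 with an adjusted p of 0.0014 by edgeR, and the adjusted p was 0.025 with library size only and 0.011 with no filter. SNHG31 had 22.3, 20.9 and 18.8 CPM with DMSO and 20.7, 18.2 and 19.5 CPM with AZD4573, again with overlap (log2 fold change -0.089 ± 0.076, adjusted p = 0.3, and adjusted p = 0.039 with library size only). SNHG26, from 1.55 to 2.68 CPM, and SNHG25, from 0.218 to 0.649 CPM, were too scarce for a narrow estimate (log2 fold change -0.24 ± 0.18, adjusted p = 0.24, and 0.54 ± 0.41, adjusted p = 0.25, the latter -0.19 with the mitochondrial scaling).

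Of the hosts called higher, SNHG5 and SNHG6 were the most abundant per kb of transcript. SNHG5, on chr6:85650491-85678932, minus strand, holds SNORD50A and SNORD50B and was measured at 125, 117 and 117 CPM with DMSO and 182, 183 and 191 CPM with AZD4573. All 3 treated libraries lay above all controls (log2 fold change 0.63 ± 0.044, adjusted p = 2.10e-08, against -0.11 with the mitochondrial scaling). SNHG6, which holds SNORD87, had 117, 106 and 112 CPM with DMSO and 181, 170.2 and 182 CPM with AZD4573. Here too the groups were far apart (log2 fold change 0.67 ± 0.048, adjusted p = 2.42e-08, against -0.065 with the mitochondrial scaling). ZFAS1, on chr20:49278178-49299600, plus strand, starts beside the gene ZNFX1 on the opposite strand and holds 3 RNAs of the SNORD12 family. Its level was 74.7, 67.9 and 67.8 CPM with DMSO and 110.4, 104 and 115 CPM with AZD4573. ZFAS1 rose without overlap (log2 fold change 0.65 ± 0.054, adjusted p = 1.18e-07, against -0.090 with the mitochondrial scaling).

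SNHG14, on chr15:24978583-25420336, plus strand, is the long imprinted host of the SNORD115 and SNORD116 clusters, which lie in the Prader-Willi region, and its 3′ part runs antisense to UBE3A. It was measured at 33.7, 34.6 and 34.5 CPM with DMSO and 55.3, 55.5 and 53.4 CPM with AZD4573. Both groups were narrow and apart (log2 fold change 0.68 ± 0.048, adjusted p = 2.55e-08, against -0.062 with the mitochondrial scaling). SNHG4, on chr5:139274102-139284899, plus strand, holds 2 H/ACA RNAs and had 15.8, 18.5 and 18.3 CPM with DMSO and 28.1, 31.9 and 30.4 CPM with AZD4573. The lowest treated library was well above the highest control (log2 fold change 0.78 ± 0.074, adjusted p = 3.93e-07, against 0.044 with the mitochondrial scaling).

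The 2 remaining hosts called higher with 10 CPM or more hold scaRNAs. SNHG10, on chr14:95521943-95534889, minus strand, holds SCARNA13 and was measured at 13.6, 14.7 and 16.1 CPM with DMSO and 28.0, 29.7 and 28.8 CPM with AZD4573. SNHG10 kept its direction with each scaling (log2 fold change 0.96 ± 0.069, adjusted p = 2.74e-08, against 0.23 with the mitochondrial scaling). SNHG22, on chr18:49813965-49851059, plus strand, holds SCARNA17 and rose from a low level, with 3.10, 4.15 and 4.07 CPM with DMSO and 11.5, 12.8 and 11.8 CPM with AZD4573. No other member with at least 10 CPM had a higher fold change (log2 fold change 1.68 ± 0.11, adjusted p = 1.62e-08, against 0.94 with the mitochondrial scaling). SNHG28 had 0, 5 and 1 counts with DMSO and 15, 19 and 15 counts with AZD4573. It passed the filter through its treated libraries alone, and its fitted log2 fold change of 3.35 ± 0.70 (adjusted p = 6.42e-04, 2.64 with the mitochondrial scaling) rests on these few counts and ran from 2.76 (without DMSO replicate 1) to 5.09 (without DMSO replicate 2) with a library left out. Of its 5656 exon bases 5137 are shared with other genes.

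**Figure D2:**
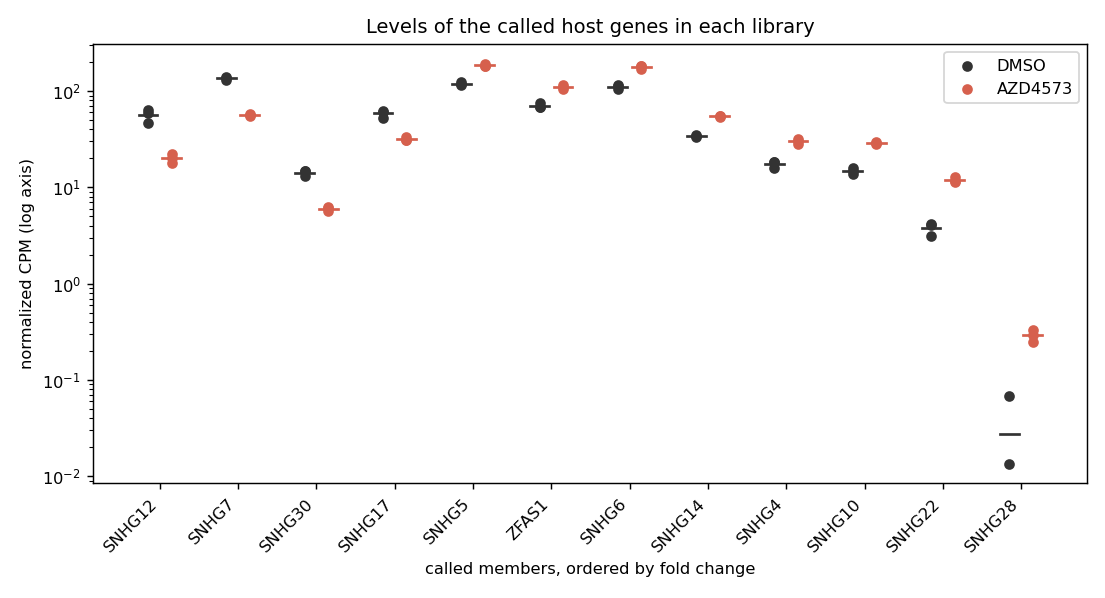
Normalized CPM (vertical log axis) of the 12 called members in each of the 3 DMSO and 3 AZD4573 libraries, ordered by fold change. Points are libraries and short lines group means, and a value of 0 (SNHG28, DMSO replicate 1) has no point on this axis. The groups do not overlap for any of the 12, as with SNHG7 at 132 to 139 CPM against 54.7 to 57.3 CPM. The 12 were called from these same libraries, so that this adds no support. Of all genes tested, 38.7% lie wholly below DMSO with AZD4573 and 39% wholly above it.

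A larger set of hosts rose by less than 1.5-fold, and it included the members with the highest level per kb of transcript, RACK1 and SNHG29. RACK1, the protein-coding member, encodes a scaffold protein of the small ribosomal subunit and holds SNORD95 and SNORD96A. It was measured at 982, 891 and 913 CPM with DMSO and 1205, 1234 and 1258 CPM with AZD4573. RACK1 rose without overlap (log2 fold change 0.41 ± 0.046, adjusted p = 2.49e-06, against -0.33 with the mitochondrial scaling). SNHG29, with SNORD49A, SNORD49B and SNORD65, had 321, 288 and 294 CPM with DMSO and 409, 421 and 445 CPM with AZD4573. SNHG29 also rose without overlap similarly in each treated library (log2 fold change 0.50 ± 0.049, adjusted p = 7.38e-07, against -0.24 with the mitochondrial scaling). SNHG32, with SNORD48 and SNORD52, had 118, 111 and 107 CPM with DMSO and 139, 145 and 162 CPM with AZD4573. The highest control stayed below the lowest treated library (log2 fold change 0.40 ± 0.057, adjusted p = 2.38e-05, against -0.34 with the mitochondrial scaling).

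DANCR, a noncoding RNA known for restraining differentiation of progenitor cells, holds SNORA26 and had 63.2, 56.7 and 58.5 CPM with DMSO and 76.1, 83.8 and 86.0 CPM with AZD4573. The groups were apart (log2 fold change 0.46 ± 0.058, adjusted p = 7.14e-06, against -0.28 with the mitochondrial scaling). EPB41L4A-AS1, with SNORA13, had 22.9, 25.6 and 25.3 CPM with DMSO and 32.7, 34.5 and 33.2 CPM with AZD4573. Its treated libraries were tightly grouped above the controls (log2 fold change 0.45 ± 0.060, adjusted p = 1.38e-05, against -0.29 with the mitochondrial scaling). SNHG20, with SCARNA16, had 26.3, 30.2 and 30.3 CPM with DMSO and 34.7, 38.9 and 38.4 CPM with AZD4573. It rose by a smaller amount (log2 fold change 0.37 ± 0.068, adjusted p = 2.59e-04, against -0.37 with the mitochondrial scaling). SNHG19, with SNORD60, had 9.91, 7.79 and 10.8 CPM with DMSO and 13.8, 11.7 and 13.4 CPM with AZD4573. Its spread between libraries was wider, with the lowest treated library just above the highest control (log2 fold change 0.45 ± 0.11, adjusted p = 0.0025, against -0.28 with the mitochondrial scaling).

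The last 2 hosts with an adjusted p under 0.05 and a fold under 1.5 were scarce. SNHG21, with SCARNA15, ran from 5.49 to 8.37 CPM (log2 fold change 0.50 ± 0.089, adjusted p = 1.99e-04, against -0.24 with the mitochondrial scaling). SNHG9, with SNORA78, ran from 3.19 to 4.81 CPM (log2 fold change 0.32 ± 0.13, adjusted p = 0.039, against -0.42 with the mitochondrial scaling). The adjusted p of SNHG9 was above 0.05 with DESeq2 (0.055), with edgeR's replicate block (0.0501), with library size only (0.158), with no filter (0.102) and in 5 of the 6 edgeR fits that left out a library (0.057 to 0.156). Of the 17 members higher by adjusted p, 13 took a value below 0 with the mitochondrial scaling.

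Divided by the length of the canonical transcript, a measure that assumes this transcript is the main one, the DMSO levels spanned a wide range. RACK1 stood first at 815 ± 41.3 CPM per kb and SNHG29 next at 679.8 ± 38.7, and their ranges over libraries did not meet (SD, n = 3 each). SNHG16 followed at 188 ± 4.16 and GAS5 at 165 ± 7.93 CPM per kb, also apart from each other. SNHG32, at 107 ± 5.37, and SNHG1, at 107 ± 12.5 CPM per kb, could not be ordered beyond their spread. SNHG5 came next at 91.0 ± 3.48 CPM per kb, which overlapped the range of SNHG1. The order below them ran through SNHG6 and SNHG7, at 61.2 ± 2.94 and 57.6 ± 1.57 CPM per kb, which overlapped slightly. Across the 31 members, Spearman's rho between the log2 fold change and this DMSO level was -0.315, a description over genes that share the same libraries. The DMSO level is also the base of the fold change, so both measures are not independent and the rho cannot show a relation.

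The members together took a larger part of the library with AZD4573. They held 0.28%, 0.278% and 0.284% of counts with DMSO and 0.309%, 0.31% and 0.317% with AZD4573, and the groups did not overlap. The means were 0.281% ± 0.00324 and 0.312% ± 0.00446 (SD, n = 3 each). Most of the difference lay in RACK1. Without RACK1 the shares were 0.18%, 0.185% and 0.189% with DMSO and 0.191%, 0.191% and 0.196% with AZD4573, a difference of 0.0082 percentage points between the means.

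Host fold changes were next set beside the kind of snoRNA carried. The 4 scaRNA hosts, SNHG10, SNHG20, SNHG21 and SNHG22, were all higher by adjusted p with TMM, 2 of them called, with a median log2 fold change of 0.73, although SNHG20 and SNHG21 were below 0 with the mitochondrial scaling. The 12 hosts of C/D RNAs alone had a median of 0.43, with 4 called higher and 1 called lower (SNHG30). The 11 hosts of H/ACA RNAs alone had a median of -0.19, with 1 called higher (SNHG4) and 2 called lower (SNHG7 and SNHG17). Hosts of both kinds were GAS5, SNHG12 and SNHG25, of which SNHG12 was called lower. Of all genes tested 23.7% were called lower and 22.7% higher, and 37.3% were higher by adjusted p alone. With so few hosts in each class, these counts cannot show that a class departs from those shares. Each class spanned both directions except the scaRNA hosts, and the classes were not tested against each other. With the mitochondrial scaling 27 of the 31 members were below 0. Over the 31 members, Spearman's rho of the fold change was -0.223 with the number of snoRNAs, 0.298 with the genomic span, -0.0451 with the number of exons and 0.142 with the length of the canonical transcript, each a description over genes that share these libraries.

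**Figure D3:**
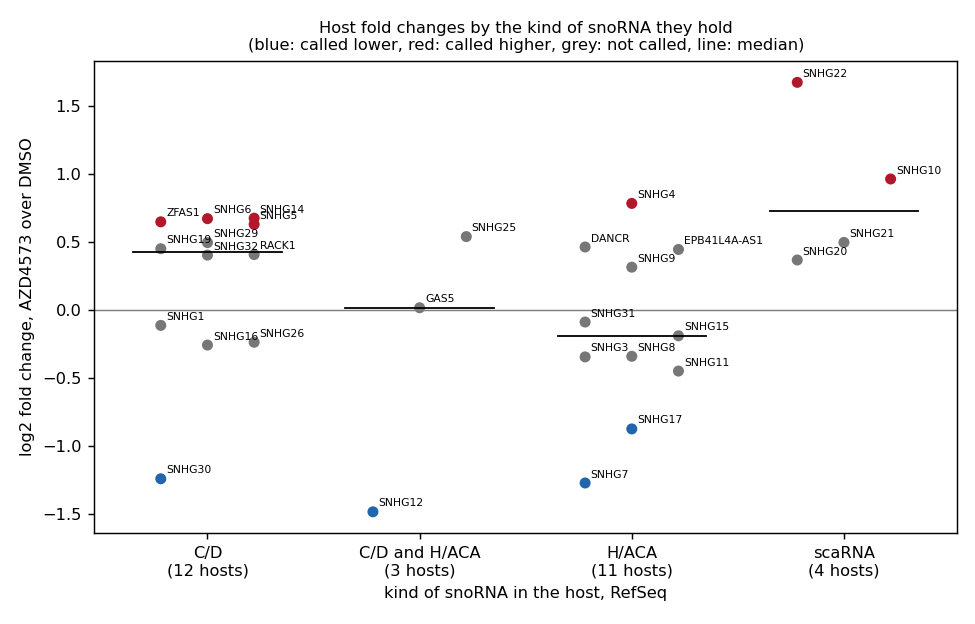
Log2 fold change with TMM (vertical axis) of 30 host genes by the kind of snoRNA that RefSeq places in them, with the median of each class as a line; SNHG28, in which RefSeq names none, is not drawn. The 4 scaRNA hosts lie above 0 with a median of 0.73, whereas the C/D and H/ACA hosts, with medians of 0.43 and -0.19, spread over both sides. With the mitochondrial scaling 27 of the 31 hosts tested lie below 0, all but SNHG4, SNHG10, SNHG22 and SNHG28.

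Transcripts of ribosomal protein genes typically begin with a pyrimidine tract, and the sequences around the annotated start are shown for called hosts of both directions. A RefSeq promoter window (GRCh38.p14, 250 bases before to 50 bases after the start) was found for 29 of the 33 members. Printed are the 20 bases before the start and the first 30 from it, 5′ to 3′, and capitals mark a run of at least 5 C or T bases near the start.
SNHG12, chr1:28581844-28581893, minus strand: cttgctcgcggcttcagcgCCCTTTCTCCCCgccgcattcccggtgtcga
SNHG7, chr9:136728155-136728204, minus strand: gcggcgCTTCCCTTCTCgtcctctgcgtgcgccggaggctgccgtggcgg
SNHG17, chr20:38435299-38435348, minus strand: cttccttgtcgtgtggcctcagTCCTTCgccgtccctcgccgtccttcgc
SNHG30, chr17:35568094-35568143, plus strand: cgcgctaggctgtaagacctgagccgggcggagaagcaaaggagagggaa
SNHG4, chr5:139274081-139274130, plus strand: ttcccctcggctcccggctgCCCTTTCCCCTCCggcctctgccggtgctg
SNHG5, chr6:85678704-85678753, minus strand: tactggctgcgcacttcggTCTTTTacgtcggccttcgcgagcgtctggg
ZFAS1, chr20:49278622-49278671, plus strand: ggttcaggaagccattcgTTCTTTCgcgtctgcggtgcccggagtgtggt
SNHG10, chr14:95534843-95534892, minus strand: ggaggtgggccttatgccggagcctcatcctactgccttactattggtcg
SNHG22, chr18:49814003-49814052, plus strand: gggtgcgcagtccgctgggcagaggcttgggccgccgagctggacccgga
SNHG12, SNHG7 and SNHG4 carry the long runs, of 12, 11 and 13 bases, SNHG17, SNHG5 and ZFAS1 shorter ones, and SNHG30, SNHG10 and SNHG22 none of that length. The run of SNHG7 ends before the annotated start, and that of SNHG4 begins at it.

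An unbroken run of at least 8 C or T bases that touched the stretch from 5 bases before to 10 bases after the start was found in 8 of 29 members (27.6%) and in 12.8% of all 35116 windows. It occurred in 2 of 4 hosts called lower, 1 of 7 called higher and 4 of 16 not called, and in SNHG18, which was not tested, so that it was present in hosts that fell and in hosts that rose. On either strand of the whole window, CACGTG was found in 2 members (6.9%, SNHG7 and SNHG30) and in 7.26% of all windows. TATAAA was found in 4 members (13.8%) and in 11.5% of all windows. These are matches of letters within 1 annotated start per gene, and RefSeq and GENCODE place some starts differently.

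Most hosts share exon bases with another gene, which bears on how reads could be assigned, since RSEM at its default settings does not use strand and divides ambiguous reads by estimation. Such sharing was found for 23 members, of which 3 were called lower (13%) and 8 higher (34.8%), where 23.7% and 22.7% of all genes tested were. The median log2 fold change of these 23 was 0.45. The other 10 share none once snoRNA, scaRNA, miRNA and snRNA genes are left out. Of their 8 tested, 1 was called lower (SNHG17) and 0 higher by edgeR, with 2 higher at an unadjusted p under 0.05 without the fold threshold and 0 called by DESeq2, and their median was -0.10. The median relative to all genes was thus 0.42 for the first set and -0.13 for the second. All 8 members called higher share exon bases, as do 23 of the 31 members tested. Only 8 tested members share none, so that 0 called higher among them, where 22.7% of all genes were, cannot show a difference. The part of shared reads in the values of the members called higher was not tested. In canonical transcripts of the 10 others, SNORA9 lies in an exon of SNHG15 and SNORA50C in an exon of SNHG25. SNORA71E lies partly in an exon of SNHG11, also among these 10.

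The partners with the larger counts could be compared directly. SNHG3 shares 242 exon bases on the same strand with RCC1, a nuclear exchange factor of Ran, a gene measured at 127 ± 4.45 CPM with DMSO and 64.1 ± 4.44 CPM with AZD4573. RCC1 fell, with a lower fold change than SNHG3 (log2 fold change -0.99 ± 0.054, adjusted p = 2.10e-09). SNHG4 shares 626 bases on the same strand with a MATR3 gene (ENSG00000280987), at 16.1 ± 0.188 CPM with DMSO and 34.6 ± 7.97 CPM with AZD4573, which rose as SNHG4 did (log2 fold change 1.10 ± 0.12, adjusted p = 1.71e-06). SNHG14 shares 141 bases with SNRPN, a spliceosomal protein gene of the same imprinted region, at 57.7 ± 4.84 CPM with DMSO and 94.8 ± 2.23 CPM with AZD4573, which rose with TMM (log2 fold change 0.71 ± 0.058, adjusted p = 9.37e-08, against -0.025 with the mitochondrial scaling). On the other strand SNHG14 shares 1822 bases with UBE3A, a ubiquitin ligase gene, at 93.7 ± 4.76 CPM with DMSO and 66.5 ± 1.64 CPM with AZD4573, which moved the opposite way (log2 fold change -0.50 ± 0.049, adjusted p = 7.41e-07).

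SNHG20 shares 460 bases on the same strand with SEC14L1, at 269.9 ± 4.69 CPM with DMSO and 186 ± 12.3 CPM with AZD4573, which fell while SNHG20 rose (log2 fold change -0.54 ± 0.049, adjusted p = 2.79e-07). SNHG10 shares 301 bases on the opposite strand with GLRX5, at 197 ± 13.1 CPM with DMSO and 211 ± 5.95 CPM with AZD4573, for which the test was not passed (log2 fold change 0.093 ± 0.050, adjusted p = 0.11). ZFAS1 shares 249 bases with ZNFX1, at 51.8 ± 1.90 CPM with DMSO and 43.9 ± 2.01 CPM with AZD4573, which fell (log2 fold change -0.24 ± 0.053, adjusted p = 0.0011). SNHG7 shares 1482 bases on the opposite strand with DIPK1B, at 3.34 ± 0.731 CPM with DMSO and 5.52 ± 0.773 CPM with AZD4573, which rose while SNHG7 fell (log2 fold change 0.73 ± 0.16, adjusted p = 0.0011, against -0.011 with the mitochondrial scaling). SNHG22 shares 229 bases on the opposite strand with MYO5B, which was scarce, at 0.287 ± 0.0428 CPM with DMSO and 0.489 ± 0.170 CPM with AZD4573. RACK1 has 3 annotated pseudogenes, to which some of its reads could be assigned.

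Many snoRNAs reside in protein-coding genes, and these were examined beside the members. Of 274 such genes other than RACK1, 227 were tested, with 52 called lower (22.9%), 37 called higher (16.3%) and a median log2 fold change of -0.005. Of all genes tested 23.7% were called lower and 22.7% higher, and 37.3% were higher by adjusted p alone. The list of coding hosts was divided into ribosomal protein genes and others. Among 29 ribosomal protein genes 14 were called higher and 0 lower by edgeR, with 28 higher by adjusted p alone, 0 lower at an unadjusted p under 0.05, 0 lower by DESeq2, and a median of 0.57, although 0 were called higher and 1 lower with the mitochondrial scaling. RPL4 rose from 2222 ± 197 to 3180.2 ± 142 CPM (log2 fold change 0.52 ± 0.060, adjusted p = 3.43e-06, against -0.22 with the mitochondrial scaling). RPL13A rose from 1748 ± 135 to 2933 ± 143 CPM (log2 fold change 0.75 ± 0.058, adjusted p = 5.59e-08, against 0.0063 with the mitochondrial scaling). Among the 198 others 52 were called lower and 23 higher, with a median of -0.23. They include EEF2, a translation elongation factor, at 3391 ± 109.7 CPM with DMSO and 4509 ± 221 CPM with AZD4573 (log2 fold change 0.41 ± 0.048, adjusted p = 3.52e-06, against -0.33 with the mitochondrial scaling), and NCL, which encodes nucleolin, at 1864 ± 27.6 CPM with DMSO and 1478 ± 24.6 CPM with AZD4573 (log2 fold change -0.33 ± 0.040, adjusted p = 4.60e-06). The members' median of 0.40 lay between those of the ribosomal protein hosts and of the other coding hosts, and these differences were not tested.

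The proteins that bind snoRNAs were examined as well. Of 20 core and assembly proteins of the snoRNP particles, 9 were called lower (45%, where 23.7% of all genes were) and 0 higher by edgeR, with 5 higher at an unadjusted p under 0.05 without the fold threshold and 0 called higher by DESeq2, and the median log2 fold change was -0.56. With the adjusted p alone 13 were lower and 5 higher, where 37.4% and 37.3% of all genes were, and the differences from all genes were not tested. FBL, the methyltransferase of the C/D particle, rose by less than the threshold, from 445 ± 26.2 CPM with DMSO to 599 ± 20.5 CPM with AZD4573 (log2 fold change 0.43 ± 0.049, adjusted p = 2.83e-06, against -0.31 with the mitochondrial scaling). NOP56 and NOP58, its scaffold proteins, were at 521 ± 27.4 CPM with DMSO and 354 ± 16.8 CPM with AZD4573 and at 322 ± 16.7 CPM with DMSO and 279 ± 6.42 CPM with AZD4573. Both fell by less than the threshold (log2 fold change -0.56 ± 0.050, adjusted p = 2.56e-07, and log2 fold change -0.21 ± 0.045, adjusted p = 9.66e-04). DKC1, the pseudouridine synthase of the H/ACA particle, was at 427 ± 3.71 CPM with DMSO and 288 ± 13.3 CPM with AZD4573 and fell as well (log2 fold change -0.57 ± 0.043, adjusted p = 4.23e-08).

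Factors of nonsense-mediated decay, the pathway known to degrade several spliced host RNAs, were also examined. Of 18, 5 were called lower (27.8%, near the 23.7% of all genes) and 0 higher by edgeR, with 4 higher at an unadjusted p under 0.05 without the fold threshold and 0 called higher by DESeq2, and the median log2 fold change was -0.37. With the adjusted p alone 14 were lower and 4 higher, where 37.4% and 37.3% of all genes were. These differences from all genes were not tested. SMG6, the endonuclease of the pathway, fell most among the 4 named, at 87.5 ± 5.08 CPM with DMSO and 43.5 ± 5.79 CPM with AZD4573 (log2 fold change -1.01 ± 0.080, adjusted p = 7.13e-08). UPF1, its central helicase, was at 235 ± 7.19 CPM with DMSO and 211 ± 10.7 CPM with AZD4573 (log2 fold change -0.16 ± 0.046, adjusted p = 0.0078). SMG1, the kinase that acts on UPF1, was at 206 ± 9.03 CPM with DMSO and 166 ± 2.98 CPM with AZD4573 (log2 fold change -0.31 ± 0.044, adjusted p = 2.11e-05). SMG5 was at 175 ± 11.6 CPM with DMSO and 211 ± 2.10 CPM with AZD4573 and rose with TMM (log2 fold change 0.27 ± 0.049, adjusted p = 2.39e-04, against -0.47 with the mitochondrial scaling). Whether these changes bear on the levels of the host RNAs was not tested.

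**Figure D4:**
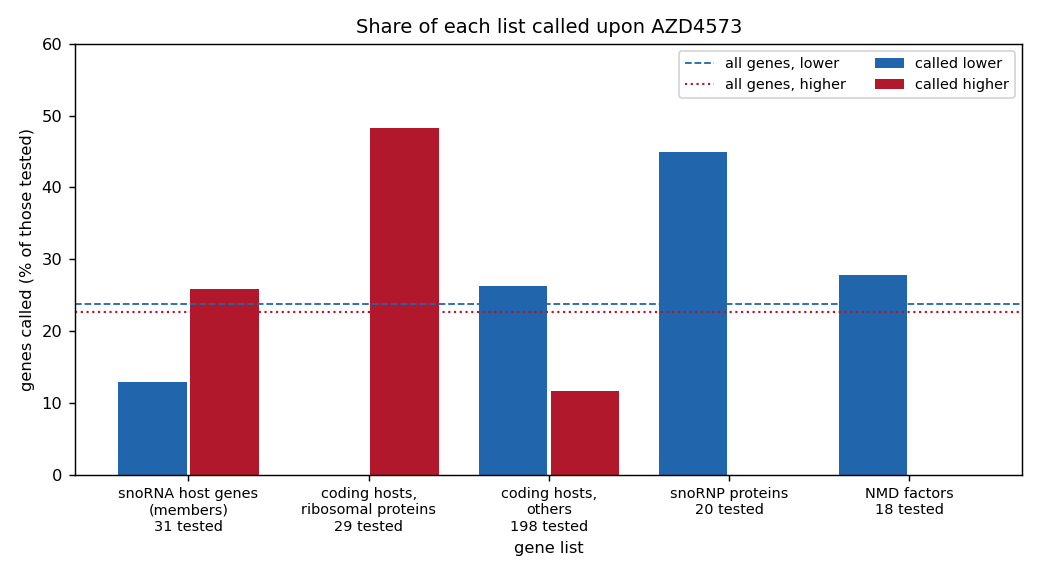
Percent of tested genes called lower (blue bars) and higher (red bars) upon AZD4573 in the host genes and in the related gene lists, with TMM scaling. Dashed and dotted lines give the shares of all genes, 23.7% and 22.7%. The host genes show 12.9% lower and 25.8% higher, ribosomal protein hosts 48.3% higher and snoRNP proteins 45% lower. With the mitochondrial scaling 2 host genes and 0 ribosomal protein hosts were called higher, where 1769 of all 17678 genes were.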

How the data were processed

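RNA was measured in 6 libraries of H9 cells (3 DMSO, 3 AZD4573), grouped by their labels. The authors trimmed reads with Cutadapt 2.3, aligned them to GRCh38 with STAR 2.7.8a and deposited expected counts per gene from RSEM 1.3.3, rounded to whole numbers and not normalized (versions per the submitters' processing notes). The labels name poly(A) selection and the study's methods rRNA depletion, and which applied was not settled. The table holds 61546 rows, of which 5 are reporter sequences at 0 counts.

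Counts were compared in R 4.3.3 with edgeR 4.0.16 (filterByExpr with a minimum count of 10, TMM factors, quasi-likelihood test, Benjamini-Hochberg adjustment over 17678 genes), and genes were called when the adjusted p was under 0.05 and the fold at least 1.5. The procedure was tested on simulated data. Alternatives were RLE factors, library size only, scaling to 13 mitochondrially encoded mRNAs, other filters, each library left out, a replicate block, DESeq2 1.42.0, other fold thresholds and members without shared exons. Within groups, chi-square per degree of freedom between libraries was 5.62 to 21.5, so that none was a copy of another. The limit of 3 counts covers counting error only.

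Exons, spans and biotypes came from GENCODE 44, nested snoRNAs and promoter windows from RefSeq (GRCh38.p14), and snoRNA sequences from GRCh38. Values are given in every library for members whose higher group mean reached 10 CPM and for the 3 with the largest fold change in each direction among those called. SNHG28 is given by its counts. Named genes of the other lists were 4 per list, fixed by role or by mean CPM, and overlapping partners were chosen after their values were seen. The members and lists were chosen with earlier results of these data known. Some sequences and genes are not reported here.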

Additional observations from a re-analysis of the deposited data

How the results depend on the processing

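Of 402 values of single host genes over the alternatives, 369 had the same sign and the same call as reported, 19 changed sign, and of those that kept their sign 8 were newly called and 6 lost their call. These values cover the other scalings, filters, libraries left out, the block and DESeq2, but not the other fold thresholds. Apart from the mitochondrial scaling, 26 of the 31 hosts had the same sign and call in each of them that gave a value, and for SNHG28 the filter of 10 counts in every library gave none. With that scaling, values below 0 were found for GAS5 (-0.72), SNHG9 (-0.42), SNHG20 (-0.37), SNHG32 (-0.34), RACK1 (-0.33), EPB41L4A-AS1 (-0.29), SNHG19 (-0.28), DANCR (-0.28), SNHG29 (-0.24), SNHG21 (-0.24), SNHG25 (-0.19), SNHG5 (-0.11), ZFAS1 (-0.090), SNHG6 (-0.065) and SNHG14 (-0.062). GAS5 also changed sign with library size only (-0.089), with no filter (-0.025), without DMSO replicate 1 (-0.032) and without AZD4573 replicate 3 (-0.054), and ran up to 0.045 with another library left out. The mitochondrial scaling called 13 hosts lower and 2 higher, 15 snoRNP proteins, 14 decay factors and 128 coding hosts lower, 6 coding hosts higher, and 9433 genes lower and 1769 higher in all. With library size only, 4 hosts and 24 coding hosts were called higher, where 3444 genes in all were. With a fold change of at least 2, 2 hosts were called higher, 3 decay factors lower, 21 coding hosts lower and 11 higher, and 2450 genes lower and 2643 higher. With no fold threshold, 9 hosts were lower and 17 higher, 5 snoRNP proteins higher, 14 decay factors lower and 4 higher, 104 coding hosts lower and 91 higher, and 6606 genes lower and 6596 higher. Of the 8 tested hosts that share no exon base with another gene, small RNA genes left aside, 1 was called lower and 0 higher. Of all genes tested, 23.7% and 22.7% were. The median of these 8 hosts relative to all genes was -0.13.

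The median of the hosts relative to all genes was 0.38, 0.25 with no filter, where 31323 genes were tested, and from 0.28 to 0.39 with each library left out. The difference in the share of counts was 0.0082 percentage points without RACK1 and 0.0415 of counts without mitochondrial and rDNA genes. The replicate numbers do not pair the libraries (correlations of deviations -0.021, 0.042 and 0.032). With the replicate block, 4 hosts were called lower and 8 higher, where 4162 and 3926 genes in all were, and no host changed its call. The causes of these changes were not tested. Depth limits SNHG25, SNHG26 and SNHG28, which had few counts, and with 3 libraries a group small changes could go unseen.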
